A study of Mus musculus with 30 samples.

Results

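Hmga2 and 6 genes of the same fetal growth axis, Hmga1, Lin28a, Lin28b, Igf2bp1, Igf2bp2 and Igf2bp3, were followed across mouse glioma-model neurospheres and embryonic brain and spinal cord. Every probe set that the platform annotation assigned to 1 of these symbols was taken, which gave 17 probe sets of 5 genes out of 34945 probe sets of 18193 genes. Hmga2 had 4 probe sets, Lin28a had 2, Lin28b had 1, Igf2bp1 had 4 and Igf2bp3 had 6. Hmga1 and Igf2bp2 were not analysed here. Hmga2 was selected on its signals in the Olig2-virus and GFP-virus neurospheres, where it was higher with Olig2 in the null lines and not in the heterozygous lines. Its differences that use those arrays, including those from untransduced arrays of the same lines, are therefore a description with no test.

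Hmga2 is a small chromatin protein that binds AT-rich DNA through its AT hooks. It is abundant in fetal stem and progenitor cells, including those of the brain, and scarce in most adult tissue. LIN28A and LIN28B are RNA-binding proteins that block the maturation of let-7 microRNAs, and let-7 in turn represses the mRNAs of Hmga2, Lin28 and the Igf2bp family. The Igf2bp genes encode proteins that bind mRNAs, among them those of Igf2 and Myc, and several are made mainly in the embryo. The arrays measured mRNA, and let-7 itself was not analysed here.

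The let-7 microRNAs that connect these genes are recognised by their seed, bases 2 to 8, which pairs with the target mRNA. Of the 11 mature names of the family in RefSeq's table for mouse GRCm38.p6, 10 carry the seed GAGGUAG, and let-7j carries GAGGUAU. A representative set is shown with the seed in capitals.
let-7a: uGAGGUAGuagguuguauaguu
let-7b: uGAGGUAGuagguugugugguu
let-7d: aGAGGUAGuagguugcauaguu
let-7i: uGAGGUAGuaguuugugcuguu
miR-98: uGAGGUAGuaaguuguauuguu

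Olig2 is a basic helix-loop-helix factor, a class that binds the E-box CANNTG, and this motif was searched in the 250 bases before each start site (RefSeq, GRCm38.p6). The motif class reads the same on both strands. The windows of the 2 members with clear signal in the neurospheres are shown, with the E-box in capitals. Hmga2 lies on the minus strand with its window at chr10:120476470-120476719, and Igf2bp3 on the minus strand with its window at chr6:49214955-49215204.
Hmga2: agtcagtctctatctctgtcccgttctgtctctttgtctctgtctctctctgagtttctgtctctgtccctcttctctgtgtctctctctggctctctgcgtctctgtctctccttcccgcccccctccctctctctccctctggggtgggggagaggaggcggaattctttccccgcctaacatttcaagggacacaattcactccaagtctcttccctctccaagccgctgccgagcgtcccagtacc
Igf2bp3: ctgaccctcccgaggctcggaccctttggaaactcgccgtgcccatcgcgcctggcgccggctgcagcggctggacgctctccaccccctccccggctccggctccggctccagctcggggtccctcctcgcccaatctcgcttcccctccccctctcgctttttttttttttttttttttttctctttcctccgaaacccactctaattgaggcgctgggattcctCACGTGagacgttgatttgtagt

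The Hmga2 window held no CANNTG, and the Igf2bp3 window held 1, CACGTG, which lay 23 bases before the start. CANNTG occurred in 66.2% of the 32851 promoter windows of the same length, so neither count sets these windows apart. The narrower forms CAGCTG (13% of windows) and CATATG (3.46%), which CANNTG includes, were in neither window. Lin28b held 2 E-boxes, the overlapping windows of the 2 listed Hmga1 starts held the same 2, and Lin28a and Igf2bp2 held none. The Igf2bp3, Lin28a and Lin28b windows lie inside the RefSeq extent of their genes, and the bases before the outermost ends of those genes were not searched. A match is a run of letters and not a binding site.

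The series asked how Olig1 and Olig2, transcription factors of the oligodendrocyte lineage, shape gliomagenic neural progenitors. Neurospheres, which are floating clusters of neural stem and progenitor cells, came from ganglionic eminences of E14.5 embryos on a mixed Swiss and C57BL/6J background. All neurosphere groups lacked Ink4a/Arf and carried EGFRvIII, a constitutively active growth factor receptor of glioma, delivered by retrovirus at passage 1 with puromycin selection at 2 µg/mL. They grew without serum in EGF and bFGF (20 ng/mL each).

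For the rescue experiment, Olig1/2-/- neurospheres received a second retrovirus at passage 3, encoding Olig2 (lines 12, 13 and 14) or GFP (the same 3 lines), with blasticidin selection at 2 µg/mL. Olig1/2+/- neurospheres likewise received Olig2 (lines 11 and 15) or GFP (the same 2 lines). The untransduced groups were Olig1/2-/- (6 lines, called null), Olig1/2+/- (3 lines, called heterozygous) and Olig1/2+/+ (3 lines, called wild type). Harvest was between passages 4 and 15, and the labels used here do not tie a passage to an array. The tissue was E18.5 spinal cord and E18.5 forebrain, each from 2 null and 2 heterozygous embryos of the same background, with no EGFRvIII virus or Ink4a/Arf deletion named. For the tissue, the sample labels give only Olig2 in the genotype, and the design text gives Olig1/2. The design calls the replicates biological. It does not say whether the lines came from separate embryos, and if they did not, the p-values measure only the spread between these samples.

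The values are Affymetrix MAS5 signals, a linear brightness per probe set, scaled so that the trimmed mean of every array is 500. The median signal of the 30 arrays lay between 129 and 217, and replicate arrays correlated at 0.925 to 0.945 over all probe sets. Differences below are of log2(signal + 16), which understates the change of dim probe sets, with the standard error and adjusted p from limma over all genes tested. Only genes that reached the array's median signal on at least the number of arrays in the smallest group fitted entered a test, and an adjusted p below 0.05 counts as a call. Olig1 lay at 7064 to 9509 in null, against 20361 to 25483 in heterozygous and 22641 to 30893 in wild-type neurospheres. The Olig2 probe set read 4450 to 10011 in Olig2-transduced null lines, against 8279 to 10275 in their GFP lines, so it did not show the added Olig2, and where its probes lie relative to the insert and the deletion is not stated in the labels. Id4, a gene that the study links to Olig function, lay at 429 to 1170 in Olig2-transduced null lines, against 2672 to 4345 in GFP null lines. In cord, Olig2 read 23.8 to 58.5 in null embryos, against 335 to 736 in heterozygous embryos.

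Before any Olig2 or GFP virus, Hmga2 was several times lower in null neurospheres than in those that kept Olig1/2. The 6 null lines had 126 to 468 units on probe set 1450780_s_at, with a median of 231. The heterozygous lines had 1446, 3453 and 1247 units (lines 11, 15 and 26), and the wild-type lines had 1291, 2204 and 471 units (lines 2, 3 and 20). The groups did not overlap, but the margin was narrow: wild-type line 20, at 471 units, lay just above null line 24, at 468 units. Hmga2 averaged 268 ± 125 units in null (SD, n = 6), 2049 ± 1220 in heterozygous and 1322 ± 867 in wild-type lines (SD, n = 3 each). In bulk RNA, fewer cells that make Hmga2 and less Hmga2 RNA per cell cannot be told apart.

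Against the mean of both genotypes with Olig1/2, Hmga2 fell by 2.46 ± 0.38 on the log2 scale (SE, limma adjusted p 0.000793), where 8.32% of 12022 genes were called. The drop against heterozygous lines was -2.82 ± 0.46 (SE, adjusted p 0.00341, with 3.51% of genes called) and against wild-type lines -2.10 ± 0.46 (SE, adjusted p 0.0129, with 6.7% called). The call against wild type rested on single arrays: it was lost without wild-type line 2 (-1.99, adjusted p 0.067) and without wild-type line 3 (-1.60, adjusted p 0.0894). Heterozygous and wild-type lines could not be separated (0.73 ± 0.53, SE, adjusted p 0.845, with 0.0333% of genes called). That the gene is lower in null lines was known when it was chosen, so these tests give the size and error and are not independent support.

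Both other Hmga2 probe sets above the filter gave the same direction. Probe set 1422851_at lay at 8.3 to 79.4 units in null, against 323 to 567 in heterozygous lines and 338, 413 and 58.7 in wild-type lines, where line 20 lay inside the null range. Its difference from the mean of both genotypes was -2.70 (adjusted p 0.00267 over probe sets), and that of 1450781_at was -2.40 (adjusted p 0.00383), where 7.53% of all probe sets were called. No null array reached the array median on either probe set. Both entered the test only through lines that kept Olig1/2, so their p-values give no separate support. The fourth, 1446196_at, reached the array median on 5 of 30 arrays. Markers of oligodendrocyte precursors moved in the same direction between these groups. Of 8 tested markers, Olig1 and Olig2 included, 4 fell and none rose by call. The summed signal of the 9 listed lay at 15132 to 22575 in null, against 40019 to 40784 in heterozygous and 39965 to 54373 in wild-type lines. Most of that sum came from the genes deleted in null lines. Olig1 averaged 8068 units in null, 22820 in heterozygous and 26610 in wild-type lines, and Olig2 averaged 8302, 13021 and 15498. The sum is therefore weighted towards the deleted genes. By gene, all 8 tested markers were lower in null lines (list median -0.55, against -0.02 for all genes). The share of precursor cells was not tested. Of 10 astrocyte markers, 4 rose and 1 fell. The part of these markers in the Hmga2 difference was not tested.

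With Olig2 returned to null lines, Hmga2 stood in the upper part of the range of heterozygous lines or above it. It exceeded all 3 wild-type lines, which had 471 to 2204 units. Lines 12, 13 and 14 had 2532, 3744 and 3044 units with Olig2, against 261, 132 and 195 units with GFP. All 3 Olig2 arrays lay far above all 3 GFP arrays. The untransduced arrays of the same lines had 227, 191 and 126 units, close to the GFP arrays. In the heterozygous lines 11 and 15, Hmga2 had 2456 and 2450 units with Olig2, against 3474 and 2503 units with GFP, and 1446 and 3453 units untransduced. There the Olig2 arrays lay below both GFP arrays by a small margin in line 15.

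As a description of the pattern that chose the gene, Hmga2 differed by 3.91 ± 0.23 (SE, log2) between Olig2 and GFP null lines, a 15.0-fold step on the log2(signal + 16) scale, where 7.88% of 12458 genes were called. The probe sets 1422851_at, 1450781_at and 1446196_at gave 4.39, 3.34 and 1.76. In heterozygous lines the difference was -0.26 ± 0.28 (SE), and 0 genes of the array were called (0% by limma, 484 at an unadjusted p under 0.05). The 2 responses differed by 4.17 ± 0.36 (SE), in a comparison with 0.0562% of genes called. GFP null lines stood -3.85 ± 0.25 (SE) from GFP heterozygous lines, with 1.7% called. GFP lines stood 0.24 ± 0.26 (SE) from untransduced lines, with 0.0241% called.

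Line by line, the Olig2 step over GFP was 3.20, 4.67 and 3.86 in lines 12, 13 and 14, and -0.50 and -0.03 in lines 11 and 15. Measured from the untransduced array of the same line it was 3.39, 4.19 and 4.43, against 0.76 and -0.49. All 3 null lines therefore moved upward from either control, while line 11 differed in sign between controls and line 15 was lower from both. The GFP array of line 13, which gave the largest step, had the highest Gapdh 3'/5' log2 ratio (0.43), a measure that rises as RNA degrades. This array also had the lowest array median (129) and the highest A260/A280 ratio, a measure of RNA purity (2.83). Without this array the null difference was 3.67, and leaving out each array in turn gave 3.67 to 4.12. The summed signal of oligodendrocyte precursor markers was 19299 to 20985 with Olig2, against 19522 to 22224 with GFP in null lines, and none of 7 tested markers was called. Most of that sum came from Olig1 and from the Olig2 probe set, which did not show the added Olig2. They averaged 9182 and 6720 units with Olig2, against 7715 and 9168 with GFP. Of 10 astrocyte markers, 2 rose and none fell, with a summed signal of 45404 to 61437 with Olig2, against 47887 to 51502 with GFP. Of 11 tested neural stem markers, 2 rose and 1 fell, with a sum of 86250 to 94943 with Olig2, against 69008 to 89785 with GFP. The part of these markers in the Hmga2 step was not tested.

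**Figure D1:**
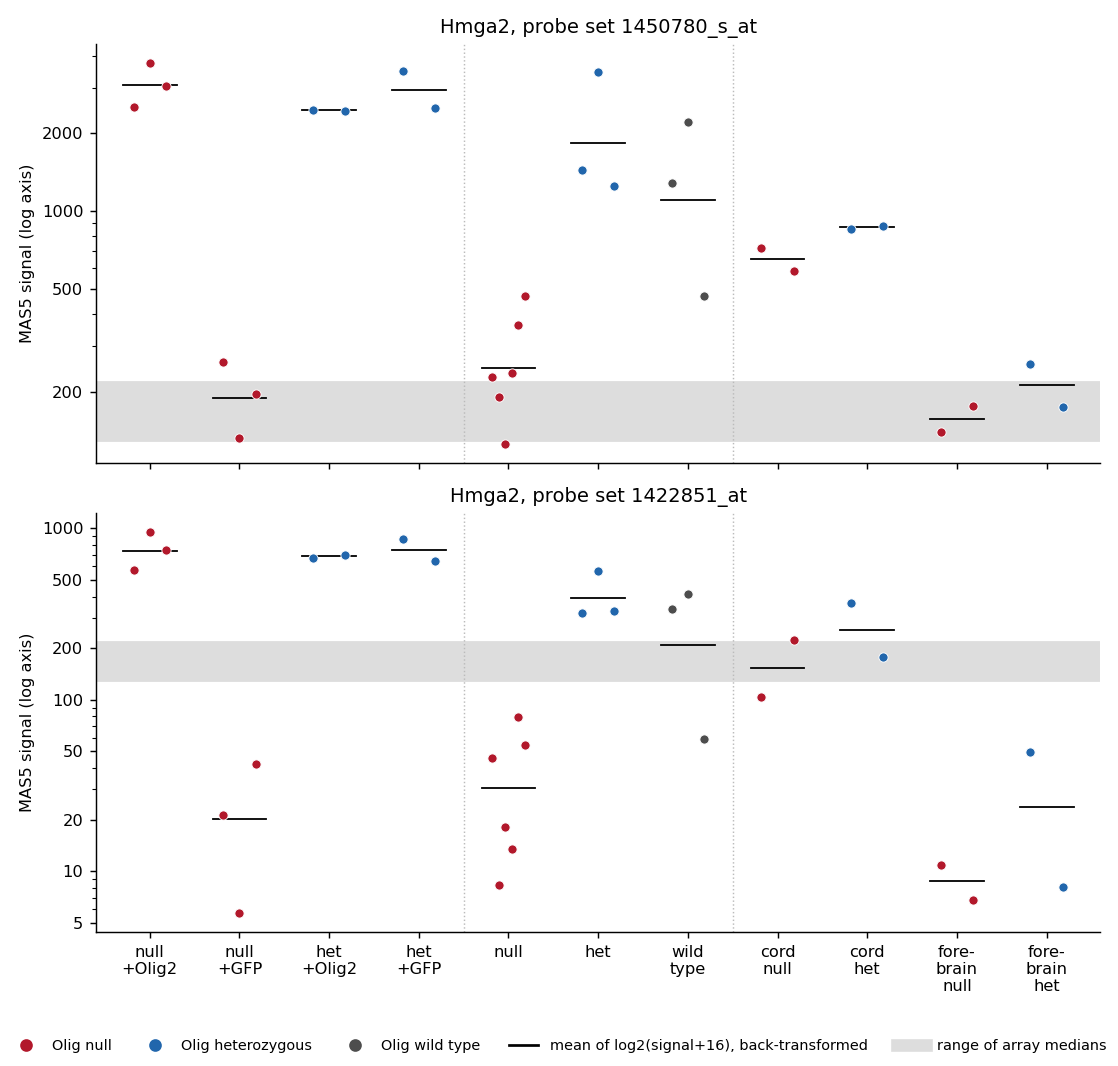
Hmga2 MAS5 signal (log axis) on each of the 30 arrays for probe sets 1450780_s_at and 1422851_at, by group. Points are arrays, bars are means of log2(signal + 16) turned back to signal, and the grey band is the range of array medians. On 1450780_s_at the 3 Olig2-transduced null lines sit between 2532 and 3744, all above the GFP null lines, at 132 to 261, and the untransduced null lines, at 126 to 468.

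The order of Hmga2 group means ran from Olig2-transduced null lines at the top, through GFP, Olig2-transduced and untransduced heterozygous lines, wild-type lines, heterozygous cord, null cord, untransduced null lines, heterozygous forebrain and GFP null lines, to null forebrain at the bottom. Most neighbours in this order overlapped. The ranges separated at 3 steps only: GFP over Olig2 in heterozygous lines (0.26 on the log2 scale), heterozygous over null cord (0.40), and null cord over untransduced null neurospheres (1.34). The lowest neurosphere groups thus overlapped the forebrain, where the gene was at 140 to 257 units.

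Few genes ran close to Hmga2 over the 22 neurosphere arrays. Likeness was measured as the root mean square difference of log2(signal + 16) after each gene was centred on its own mean, and 12690 genes were compared. The nearest was Ryr3, a ryanodine receptor calcium channel, at 0.77, against a median of 1.70 over all genes and an SD of 1.68 for Hmga2 itself. Ryr3 read 433 to 758 in Olig2 null lines, against 7.1 to 57.9 in GFP null lines, and 65.1 to 237 in untransduced null lines, against 314 to 432 in heterozygous and 215 to 266 in wild-type lines. The next were Sez6l (0.99), the aminopeptidase gene Aopep (1.0), the glycosyltransferase gene Galnt10 (1.01), the protocadherin Pcdh7 (1.01), the connexin gene Gjc3 (1.02), the peptide hormone gene Apln (1.02) and the zinc finger gene Tshz2 (1.02). Igf2bp3, at 1.59 on probe set 1433731_at, ranked 1930, and its other probe sets were not ranked. These values share the arrays that chose Hmga2 and describe it only.

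Igf2bp3, an mRNA-binding protein of fetal tissue, was the only other member with clear signal in the neurospheres. Of its 6 probe sets, 4 were at or above the array median on all 30 arrays, 1450687_at on 16 and 1453957_a_at on 15. It was somewhat lower in null lines, but by far less than Hmga2 and without a call. On probe set 1433731_at the null lines had 1222 to 1917 units (median 1505), against 2458, 2122 and 1889 in heterozygous lines and 1341, 2259 and 2086 in wild-type lines. The null range overlapped both others, since null line 21 exceeded heterozygous line 26 and wild-type line 2 lay among the null lines. Igf2bp3 averaged 1525 ± 258 units in null (SD, n = 6), 2156 ± 286 in heterozygous and 1895 ± 487 in wild-type lines (SD, n = 3 each).

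The difference from the mean of both genotypes was -0.40 ± 0.14 (SE, limma adjusted p 0.113). All 6 probe sets pointed down, from -0.40 to -1.10, and none was called (adjusted p 0.102 to 0.237, against 7.53% of probe sets). Wild-type line 2 held the call back: without it the difference was -0.51 with an adjusted p of 0.0268. Against heterozygous lines the 6 probe sets gave -0.50 to -1.74, none called (adjusted p 0.143 to 0.298, against 3.09% of probe sets). Against wild-type lines the difference was -0.29 (adjusted p 0.391), and heterozygous lines stood 0.21 from wild-type lines (adjusted p 0.885).

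Whether Igf2bp3 followed Hmga2 when Olig2 was returned was not settled: the result changed with the control used, and 1 GFP array stood apart. In lines 12, 13 and 14, 1433731_at read 2298, 2164 and 1964 with Olig2, against 3904, 1490 and 1415 with GFP, and 1222, 1511 and 1292 untransduced. The GFP array of line 12 was the highest of all arrays, and the other 2 GFP arrays lay below all 3 Olig2 arrays. The Olig2 arrays did not overlap the untransduced arrays of the same lines. On 1422610_s_at the same array stood out more: 7176 units with GFP in line 12, beside 590 and 682 in lines 13 and 14, with 1419, 1541 and 1691 units in the Olig2 arrays. Line 12 untransduced had 317 units.

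With GFP as control, Igf2bp3 was not called in null lines (0.08 ± 0.31, SE, limma adjusted p 0.899). Without the line 12 GFP array the difference was 0.55 (adjusted p 0.0728), and without both line 12 arrays it was 0.50 ± 0.19 (SE, adjusted p 0.182), where 2.46% of genes were called. With the untransduced arrays of the same lines as control, it was 0.67 ± 0.13 (SE, adjusted p 0.0154), where 4.66% of 12370 genes were called. All 6 probe sets were called there, from 0.67 to 1.96 (adjusted p 0.0044 to 0.0497, against 4.35% of probe sets). Leaving out each array in turn gave 0.61 to 0.76. The call was lost without untransduced line 12 (adjusted p 0.0651), Olig2 line 12 (0.061) or Olig2 line 13 (0.0594). Both comparisons share the Olig2 arrays. The untransduced control lacks the second virus and its selection, so Olig2 and transduction cannot be told apart in it. GFP stood 1.66, -0.02 and 0.13 from untransduced in null lines 12, 13 and 14, and 0.23 over both genotypes (adjusted p 0.759).

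In heterozygous lines Igf2bp3 moved the other way without a call. Lines 11 and 15 had 1697 and 1467 units with Olig2, against 1750 and 2474 with GFP, and 2458 and 2122 untransduced. Both Olig2 arrays lay below all 4 controls. The difference was -0.40 ± 0.38 (SE) from GFP, and -0.53 ± 0.16 (SE, adjusted p 0.34) from untransduced lines, a comparison in which limma called 0 of 12370 genes (0%, 1070 at an unadjusted p under 0.05). The responses of null and heterozygous lines differed by 0.48 (adjusted p 0.752) with the GFP control and by 1.20 ± 0.20 (SE, adjusted p 0.107, with 0.0404% of genes called) with the untransduced control. By probe set, 1 of 6 differences was called (1422611_s_at, 1.91, adjusted p 0.0345, against 0.0718% of probe sets). GFP null and GFP heterozygous lines stood -0.04 apart (adjusted p 0.975).

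Read against untransduced arrays, the Igf2bp3 probe sets pointed 1 way within each line. Olig2 was above untransduced on 6 of 6 Igf2bp3 probe sets in lines 12, 13 and 14, by 0.90 to 2.11, 0.45 to 2.70 and 0.45 to 1.65. It was above on 0 of 6 in lines 11 and 15. Against GFP it was above on 6 of 6 in lines 13 and 14, and on 0 of 6 in line 12. Probe sets of 1 gene on 1 array share their RNA and are not replicates.

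**Figure D2:**
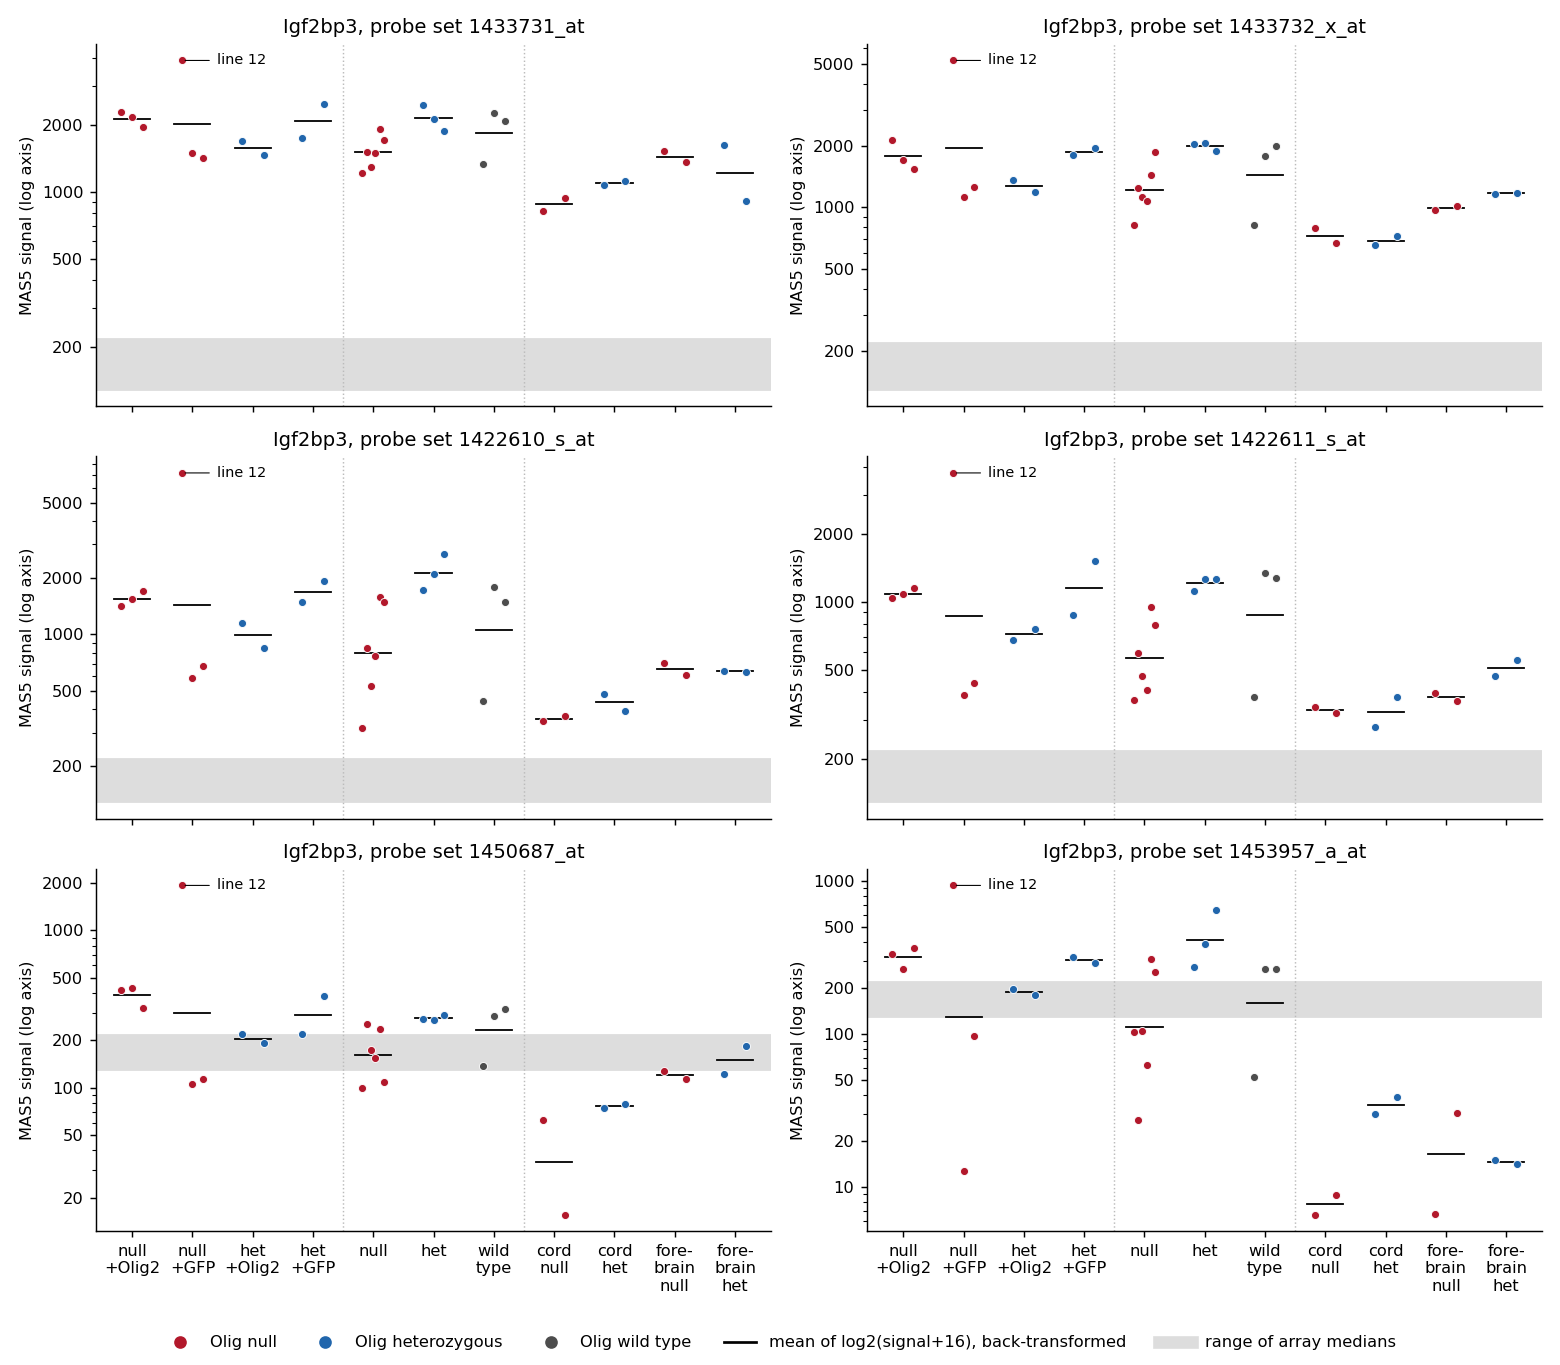
Igf2bp3 MAS5 signal (log axis) on each of the 30 arrays for its 6 probe sets, by group, with points for arrays, bars for means of log2(signal + 16) turned back to signal, and a grey band for the range of array medians. The GFP array of null line 12 is marked and lies above every other array on all 6 probe sets, at 3904 units on 1433731_at and 7176 on 1422610_s_at.

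**Figure D3:**
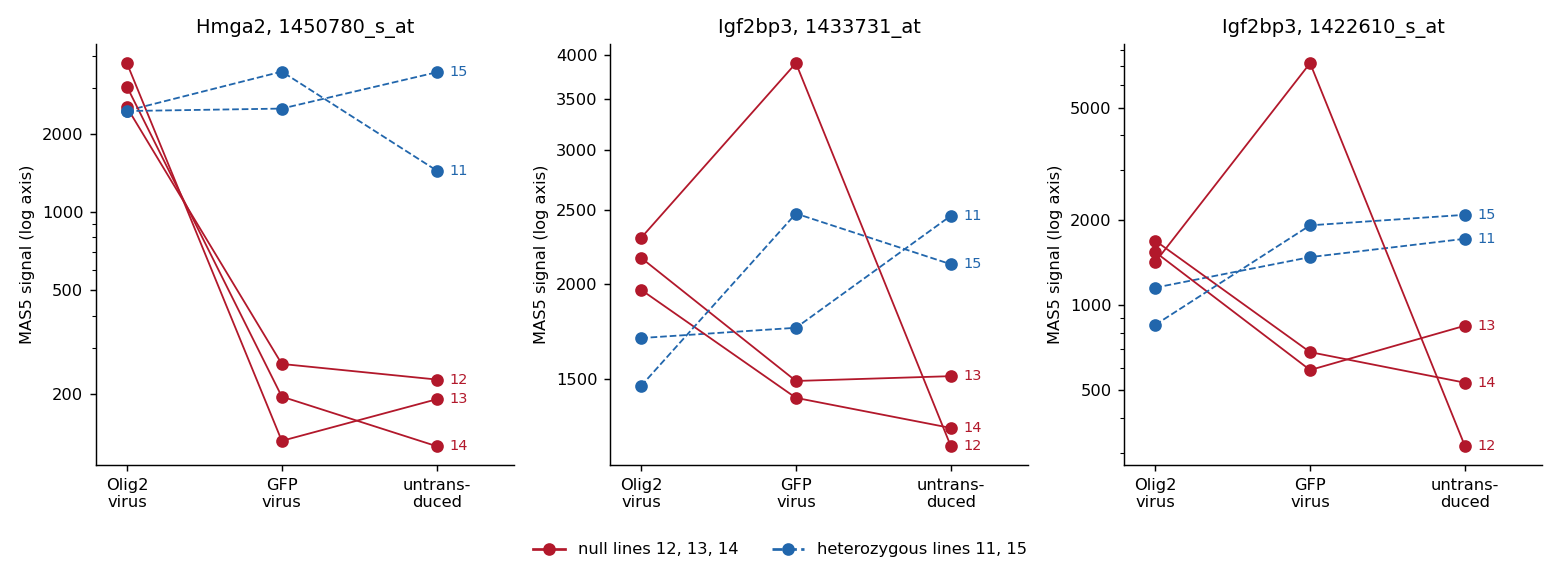
MAS5 signal (log axis) of Hmga2 (1450780_s_at) and of Igf2bp3 (1433731_at and 1422610_s_at) in each line with Olig2, with GFP and untransduced, with a joined point set per line, solid for null lines 12, 13 and 14 and dashed for heterozygous lines 11 and 15. Hmga2 is high in the null lines with Olig2 only, at 2532 to 3744, while Igf2bp3 in line 12 peaks with GFP, at 3904 on 1433731_at.

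The LIN28 genes stayed dim throughout. Lin28a gave 60 readings over its 2 probe sets, from 3.1 to 122 units with a median of 27.2, and Lin28b gave 30 readings from 0.2 to 65.2 with a median of 17.6. None reached the median of its array, so neither gene was tested in any comparison, and none of these readings shows that the mRNA is absent. Within that dim range, the Lin28a probe set 1437752_at read 9.1, 11.5 and 20.6 in Olig2 null lines, against 56.1, 75 and 29.6 in GFP null lines. Lin28b read 8.8, 4.7 and 7.3 with Olig2, against 21.9, 20.7 and 11.9 with GFP. On these 2 probe sets all Olig2 arrays lay below all GFP arrays. Untransduced lines 12, 13 and 14 read 38.6, 28.6 and 56.9 for Lin28a on 1437752_at, all above the Olig2 arrays. For Lin28b they read 1.1, 4.2 and 23, which overlapped the Olig2 arrays. The other Lin28a probe set, 1421749_at, overlapped, at 23.1, 19.8 and 33.4 with Olig2, against 6.6, 21.5 and 43.4 with GFP. At this brightness the order of signals is poorly measured.

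Igf2bp1, which binds and steadies mRNAs such as that of Myc, was also dim in neurospheres. Probe set 1418761_at lay at 19.5 to 175 units over the 22 neurosphere arrays, with a median of 108, and reached the array median on 2 of them. It had 87.3, 135 and 133 units in Olig2 null lines, against 19.5, 76.7 and 99.8 in GFP null lines, and 89, 166 and 91.9 untransduced. The groups overlapped. Against untransduced arrays, where 1418761_at passed the filter, it differed by 0.06 in null lines (limma adjusted p 0.956) and by 0.02 in heterozygous lines (adjusted p 0.994). Probe set 1459825_x_at, not tested there, read 164, 259 and 99.5 with Olig2 in null lines 12, 13 and 14, against 78.2, 82.1 and 67.2 untransduced. With GFP it read 81.7, 79.4 and 155, which overlapped the Olig2 arrays. On 1455223_at and 1449210_at the Olig2 and untransduced arrays of these lines overlapped.

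Other genes of the pathway did not change as one group between untransduced null lines and the mean of both genotypes with Olig1/2, where 4.34% of all genes were higher and 3.98% lower by call and the median gene stood at -0.02. The lists were drawn up with earlier results of these data known. Of 17 tested genes of let-7 maturation and turnover, such as Dicer1, 0 were called (list median -0.03). Of 22 let-7 targets outside the members, 3 rose and 2 fell (median 0.05). Among these, the cell cycle kinase gene Cdk6 fell by 1.70 (736 against 2383 units, adjusted p 0.00257) and the repressor E2f6 by 0.82 (adjusted p 0.000159), while Myc rose by 0.51 (adjusted p 0.0101) and the insulin receptor Insr by 0.54 (adjusted p 0.0176).

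Of 15 genes of the IGF system, 3 rose and 1 fell (median 0.01). Grb14, an adaptor that dampens insulin signalling, fell by 1.44 (384 against 1091 units, adjusted p 0.000806), whereas the Igf2 scavenger receptor Igf2r rose by 0.69 (adjusted p 0.00408) and the adaptor Irs1 by 0.42 (adjusted p 0.00425). Of 15 imprinted fetal growth genes, 2 rose and 1 fell (median -0.07): Ndn rose by 1.42 (3012 against 1172 units, adjusted p 0.000692) and Mest fell by 0.91 (adjusted p 0.00179). Of 14 reported HMGA2 partners and targets, 1 rose and 2 fell (median 0.06), with the cell cycle inhibitor Cdkn2b up by 0.73 (adjusted p 0.0143), and the cyclin Ccnb2 (-0.62, adjusted p 0.0155) and the repressor Snai1 (-0.99, adjusted p 0.0227) down. None of 6 HMG box and nucleosome-binding genes was called (median -0.03).

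With Olig2 against GFP in null lines, 3.24% of all genes were higher and 4.64% lower by call, and the median gene stood at 0.03. The IGF list leaned downward, with 1 of 14 up and 4 down (median -0.49). Irs1 fell by 0.79 (3163 against 5489 units, limma adjusted p 0.00247), Irs2, a second adaptor of the receptor, fell by 1.35 (adjusted p 0.0115), and Igf2r fell by 1.11 (adjusted p 0.0253), while the binding protein gene Igfbp5 rose by 1.21 (adjusted p 0.0108). Of 22 let-7 targets, 3 rose and 4 fell (median -0.06), with the cyclin Ccnd1 at 11820 units with Olig2, against 24235 with GFP (-1.04, adjusted p 0.00109), Dmd up by 1.32 (adjusted p 0.0156) and Igf1r at -0.61 (adjusted p 0.027).

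Of 15 imprinted genes, 1 rose (Mest, 0.85, adjusted p 0.0391) and 2 fell, with Ndn at 874 units with Olig2, against 3315 with GFP (-1.96, adjusted p 0.00642). The list medians were 0.14 for imprinted genes and -0.11 for let-7 maturation and turnover, of which 0 of 17 were called. Of 14 HMGA2 partners and targets 1 was called, E2f1 (-0.84, adjusted p 0.0354), and 0 of 6 HMG genes. In heterozygous lines no gene of any list was called, where 0 of 12458 genes of the array were. In the comparison of the 2 line types no gene of these lists was called either, where 0.0562% of all genes were.

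In E18.5 tissue the members did not move together: Hmga2 was higher in cord than in forebrain, while Igf2bp1 was lower. Hmga2 (1450780_s_at) had 719 and 589 units in null cord and 851 and 878 in heterozygous cord, against 140 and 176 in null forebrain and 257 and 175 in heterozygous forebrain. Every cord array lay above every forebrain array. The means were 759 units in cord and 187 in forebrain, a difference of 1.95 ± 0.17 (SE, limma adjusted p 5.79e-06). In this comparison 40% of 12342 genes were called, so a call by itself is common here. Probe set 1422851_at gave 2.78 (adjusted p 0.00797, with 39.9% of probe sets called). It reached the array median on 2 of 8 tissue arrays, both in cord. It therefore entered the test only through the region where it was high, and its p-value gives no separate support.

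Igf2bp1 (1418761_at) had 189 and 154 units in null cord and 136 and 155 in heterozygous cord, against 383 and 352 in null forebrain and 314 and 398 in heterozygous forebrain. Again the regions did not overlap. It fell by 1.12 ± 0.20 (SE, adjusted p 0.0011) in cord. Probe set 1455223_at gave -1.47 (adjusted p 0.000162), from 118 to 153 units in cord, against 347 to 457 in forebrain, and 1459825_x_at gave -0.34 (adjusted p 0.49). In tissue, these probe sets and 1418761_at reached the array median in forebrain only. They entered the test only through the region where they were high, which limits what their p-values show. The order of Igf2bp1 group means had both forebrain groups on top, separated without overlap from all others by 0.99 on the log2 scale.

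Igf2bp3 was slightly lower in cord and overlapped between regions. It had 818 and 944 units in null cord and 1076 and 1116 in heterozygous cord, against 1522 and 1362 in null forebrain and 1629 and 911 in heterozygous forebrain. The difference was -0.43 ± 0.15 (SE, adjusted p 0.0469). The call was lost in 7 of the 8 fits that left out 1 array (-0.63 to -0.22, adjusted p 0.000827 to 0.131) and held only without heterozygous forebrain embryo 4, the low array. It was also lost without the filter (adjusted p 0.0701) and after quantile normalization (0.0558). Probe sets 1422610_s_at (-0.69, adjusted p 0.00128) and 1433732_x_at (-0.60, adjusted p 0.000733) were called, and 1422611_s_at was not (-0.40, adjusted p 0.0561).

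Cord and forebrain also differed in the cells they held. The summed signal of 10 markers of meninges and fibroblasts was 30095 to 30735 in null cord and 17268 to 22755 in heterozygous cord, against 2935 to 3226 in null forebrain and 2569 to 3213 in heterozygous forebrain. By gene, 9 of the 10 were called. All 10 astrocyte markers and all 8 tested microglia markers were likewise higher in cord. Of 8 tested oligodendrocyte precursor markers, 7 rose and none fell by call. Not every list rose: of 12 neural stem markers 4 rose and 7 fell by call, and of 12 neuron markers 4 rose and 6 fell. The Gapdh 3'/5' log2 ratio was 0.04 to 0.37 in cord, against -0.22 to -0.07 in forebrain. Their part in the member differences was not tested.

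By genotype, no member was called in either region. Hmga2 was lower in null than in heterozygous embryos by the same amount in forebrain (-0.40, adjusted p 0.828, with 0.0405% of genes called) and in cord (-0.40, adjusted p 0.908, with 0.13% called). The cord groups did not overlap and the forebrain groups did. The 2 genotype differences stood -0.01 apart (adjusted p 0.999), in a comparison where limma called 0 genes (0%, 705 at an unadjusted p under 0.05). Igf2bp1 differed by 0.05 in forebrain (adjusted p 0.987) and 0.21 in cord (adjusted p 0.986). Igf2bp3 differed by 0.24 in forebrain (adjusted p 0.887) and -0.31 in cord (adjusted p 0.938), and both cord null arrays lay below both heterozygous ones.

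**Figure D4:**
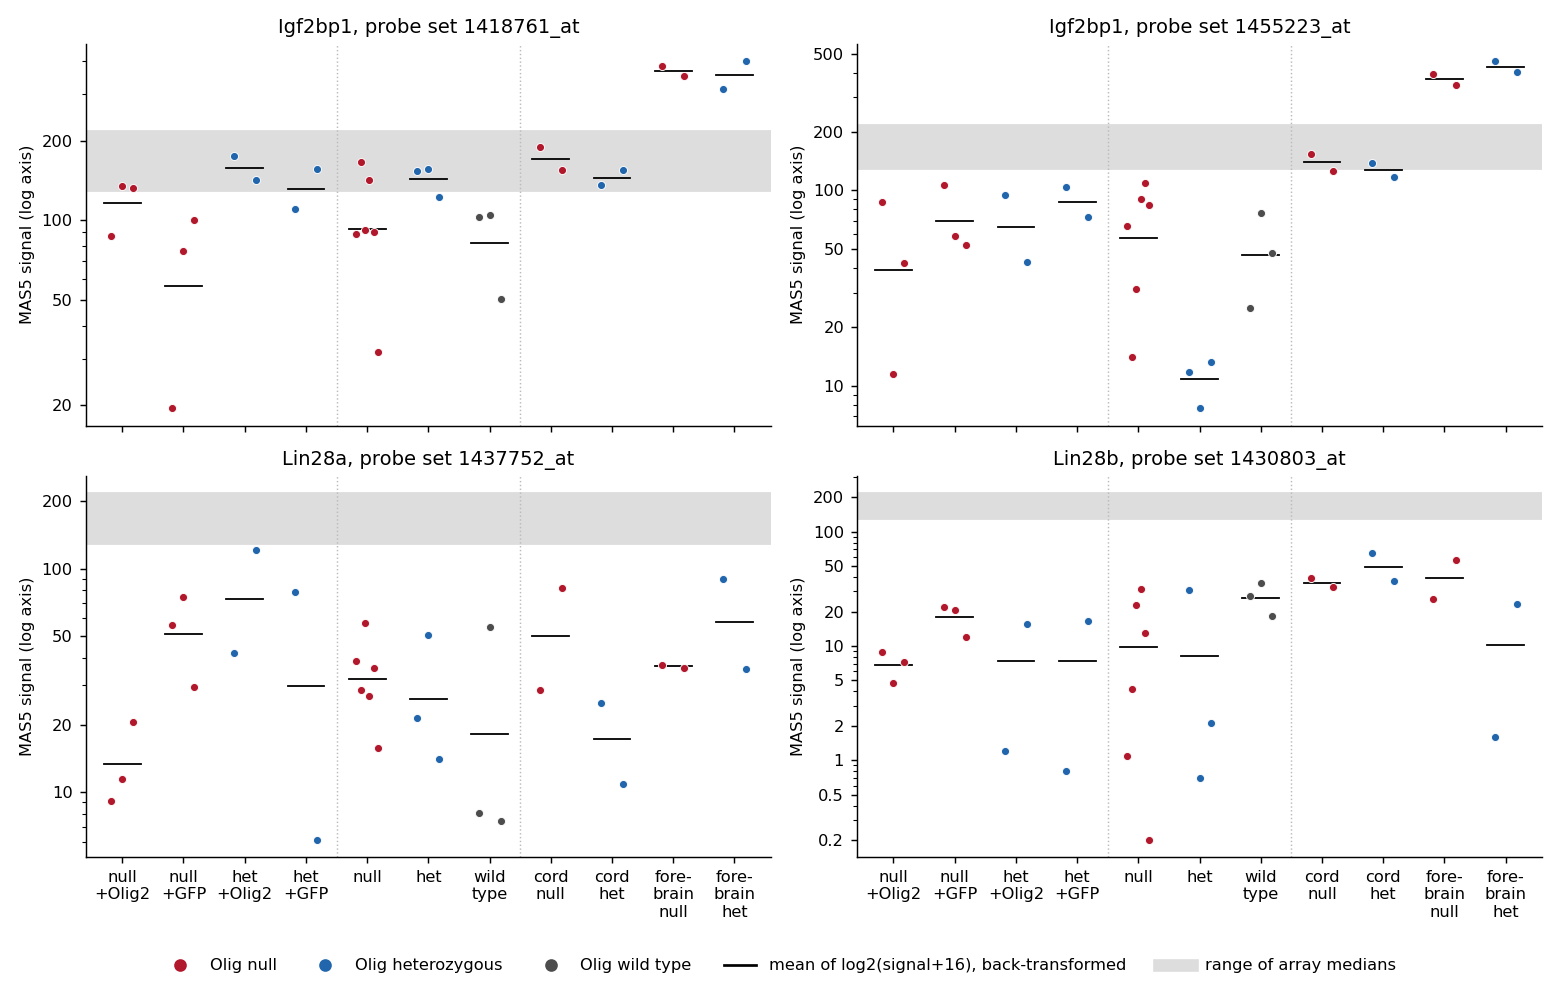
MAS5 signal (log axis) of Igf2bp1 (1418761_at and 1455223_at), Lin28a (1437752_at) and Lin28b (1430803_at) on each of the 30 arrays by group, with points for arrays, bars for means of log2(signal + 16) turned back to signal, and a grey band for the range of array medians. Both Igf2bp1 probe sets are above the band in the 4 forebrain arrays only, and every Lin28a and Lin28b point lies below it.

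By region, the pathway lists are read against 21.3% of all genes higher and 18.7% lower in cord by call and a median gene at -0.01. Of 16 IGF genes, 9 rose and 2 fell (median 0.52), led by Igfbp5 (1.90, limma adjusted p 2.73e-08) and by Igf2, the fetal growth factor, at 7722 units in cord, against 1177 in forebrain (2.66, adjusted p 8.4e-08). The protease gene Htra1 rose by 2.43 and Igfbpl1 fell by 2.65. Of 15 imprinted genes, 10 rose and 2 fell (median 0.59), among them Peg3 (1.54) and the proteoglycan gene Dcn (2.30) up and Nnat (-0.89) down. Dcn is also a gene of meninges and fibroblasts.

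The medians of the let-7 lists were below 0 in cord. Of 17 genes of let-7 maturation and turnover, 1 rose and 8 fell (median -0.28): Syncrip (-1.04, adjusted p 4.82e-06), Ago1 (-0.64) and Tut4 (-0.48), which adds uridines to the let-7 precursor, fell, and Ago2 rose (0.36). Of 22 let-7 targets, 0 rose and 8 fell (median -0.13), with Ccnd2 at -1.18 (adjusted p 4.72e-06), Smarcad1 at -0.88, Tgfbr1 at -0.85 and Nras at -0.70. Of 6 HMG genes, 1 rose (Hmgn3, 0.43) and 3 fell (median -0.24), Hmgb2 by 1.02. Of 11 HMGA2 partners and targets, 2 rose and 2 fell (median -0.16), with Plagl1 up by 0.59, and Dnmt1 (-0.43) and Top2a (-0.45) down. By genotype, Dcn in cord was the 1 called gene of these lists (0.99, adjusted p 0.0431), and none was called in forebrain.

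Set beside the forebrain, the mean of untransduced null and heterozygous neurospheres was higher for Hmga2 and Igf2bp3 and lower for Igf2bp1. This comparison mixes age, culture, EGFRvIII and Ink4a/Arf loss, which cannot be told apart, and 62.1% of 13189 genes were called. Hmga2 differed by 1.81 ± 0.32 (SE, limma adjusted p 0.000154), with both genotypes weighted equally. The neurosphere range, 126 to 3453 units, spanned the forebrain range, 140 to 257, and 3 of the 6 null lines lay within it. Probe set 1422851_at gave 2.14 (adjusted p 0.000993) and 1450781_at gave 0.86 (adjusted p 0.114), and with 1450781_at chosen for the gene the call was lost. Among the arrays compared, both probe sets reached the array median in heterozygous neurospheres only, so they entered the test through that group.

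Igf2bp1 fell by 1.52 ± 0.30 (SE, adjusted p 0.000483) in neurospheres. The 9 neurosphere arrays lay at 31.7 to 166 units, against 314 to 398 in forebrain, with no overlap. Probe set 1455223_at gave -3.22 (adjusted p 2.79e-06). Among the arrays compared, 1455223_at reached the array median in forebrain only, and 1418761_at in forebrain and 1 null line. Both entered the test through the forebrain, where they were high. Igf2bp3 rose by 0.44 ± 0.15 (SE, adjusted p 0.0216), and 5 of its 6 probe sets were called, against 60.6% of all probe sets. The largest difference was that of 1453957_a_at (2.89, adjusted p 0.000105). Neither 1453957_a_at nor 1450687_at reached the array median on any forebrain array, so they entered the test only through neurospheres. The gene's call was lost without heterozygous line 11 (adjusted p 0.0518), null forebrain embryo 2 (0.0793) or heterozygous forebrain embryo 4 (0.188). Summed neuron markers were 7268 to 12145 in neurospheres, against 86220 to 89374 in forebrain.

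**Figure D5:**
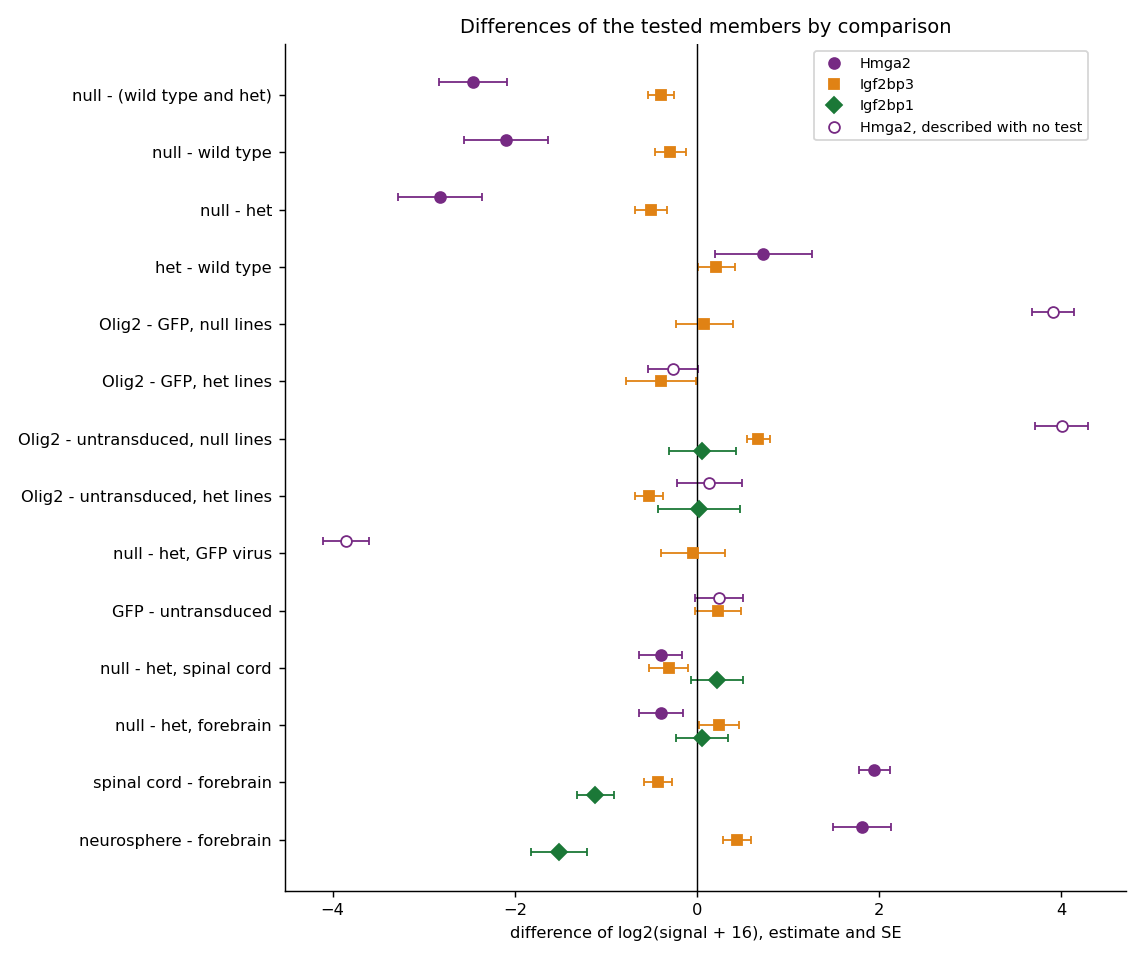
Difference of log2(signal + 16) with its standard error for each tested member, first-named group minus second, in the comparisons of 2 groups. Only the probe set that represents each gene is drawn (1450780_s_at for Hmga2, 1433731_at for Igf2bp3, 1418761_at for Igf2bp1). Differences between 2 responses are not drawn. Open circles are Hmga2 values described without a test. Hmga2 spans -3.85 (null against heterozygous lines with GFP) to 4.0 (Olig2 against untransduced in null lines). On the probe sets drawn, Igf2bp3 stays between -0.53 and 0.67 and Igf2bp1 reaches -1.52 in neurospheres against forebrain. Other probe sets gave larger differences, such as Igf2bp3 1453957_a_at at -1.74 (null against heterozygous) and 1.96 (Olig2 against untransduced in null lines).

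Between neurospheres and forebrain, 31.8% of all genes were higher and 30.4% lower by call, and the median gene stood at -0.02. Of 22 let-7 targets, 11 rose and 6 fell (median 0.24), with the oncogene Mycn at 30750 units in neurospheres, against 271 in forebrain (7.02), and Ccnd1 (4.42), Myc (1.89) and Ccnd2 (1.33) also up. Of 16 IGF genes, 9 rose and 4 fell (median 0.60), among them the binding protein genes Igfbp2 (3.30), Igfbp3 (4.08) and Igfbp4 (2.81), and Htra1 (2.90). Of 6 HMG genes, 5 rose and 1 fell (median 1.06), with Hmgb2 at 2.30, Hmg20b at 1.67, Hmgn5 at 1.40 and Hmgn3 at 0.72. Of 14 HMGA2 partners and targets, 7 rose and 4 fell (median 0.49), with Cdkn2b (5.08), Top2a (2.43) and Ccna2 (1.93) up.

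Of 16 imprinted genes, 5 rose and 10 fell (median -2.38). The noncoding RNA Meg3 had 348 units in neurospheres, against 14322 in forebrain (-5.32), and Plagl1 fell by 3.68, while Mest (3.01) and Igf2r (2.02) rose. Of 17 genes of let-7 maturation and turnover, 5 rose and 7 fell (median -0.14), with Khsrp (1.19) and Ago2 (0.66) up and Ago4 (-0.87) and Tut4 (-0.70) down. All genes named here passed an adjusted p of 0.05 by limma.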

How the data were processed

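RNA of 22 neurosphere and 8 tissue samples was hybridized to 1 Affymetrix array each. The authors deposited MAS5 signal intensities (per the submitters' processing notes, version not given in the sources used here), linear, with the mean trimmed by 2% at each end equal to 500 on every array. Of 45101 probe sets, 34958 had 1 gene symbol in the platform annotation, 932 several and 9211 none, and 64 were controls. Signals were analysed as log2(signal + 16). Each gene was represented by the probe set of highest mean over all arrays. Genes that reached the array's median signal on at least the number of arrays in the smallest group fitted were fitted with limma 3.58.1 (R 4.3.3; lmFit, contrasts.fit, eBayes with trend), two-sided, with Benjamini-Hochberg adjustment over all genes tested and calls at 0.05. All groups of a set shared 1 variance estimate. The code was tested on simulated data. Tables were handled with pandas 2.3.3 and the R package data.table (version 1.17.8). The members and gene lists were chosen with earlier results of these data known. The genes named are the members, up to 4 genes of smallest p per list, the 8 genes nearest Hmga2, and Olig1, Olig2 and Id4 as label checks. Line and embryo numbers are shared between groups because they come from the same line or embryo. Deviations of same-numbered arrays correlated at 0.0115 to 0.0587 between Olig2 and GFP (5 pairs) and -0.0478 to 0.000367 between GFP and untransduced (5 pairs). Between tissues they correlated at 0.0022 to 0.0175 (4 pairs). In groups with 2 arrays, deviations from the group mean are mirror images, so both pairs of such groups gave the same value. There were thus fewer separate values than pairs, and these correlations do not decide whether pairing matters. The main fits had no block. Alternatives were pseudocounts of 1 and 64, no filter, quantile and 75th percentile scaling, all probe sets, no _x_at or _s_at probe sets, a replicate block, the untransduced control, and each array left out in turn. All arrays share 1 hybridization date. The number of arrays limits the precision.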

Additional observations from a re-analysis of the deposited data

Results flagged for a closer look

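Within groups of 4 to 10 arrays, the gap between the most extreme array and its nearest neighbour was compared with the range of the group, and chance alone marks about 1 group in 20. For Lin28a probe set 1421749_at in the untransduced null neurospheres this share was 0.654, as 1 line read 10.3 units and the other lines 20.5 to 27.4, all below the array medians. For Igf2bp1 probe set 1459825_x_at in the same group it was 0.634, as 1 line read 181.8 units and the other lines 49.4 to 82.1. The Hmga2 difference between Olig2 and GFP was larger in the null than in the heterozygous lines by 4.17 on the log2 scale, with all 3 null lines up and both heterozygous lines down. This is the pattern for which the gene was chosen, so the difference was not tested.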

How the results depend on the processing

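Over 14 comparisons and their alternatives, the count of members called equalled the main count in 198 of 216 fits and was another in 18, of which 10 were for cord against forebrain and 4 for neurospheres against forebrain. The count of members called between untransduced null lines and the mean of both genotypes was 1, and 1 to 2 with each array left out (2 without wild-type line 2). Against wild type alone it was 1, and 0 to 1 (0 without wild-type line 2 or line 3). With the untransduced arrays in place of GFP, the count in null lines was 1 in place of 0 (Igf2bp3, 0.67), and the Hmga2 difference in heterozygous lines changed sign, to 0.13 in place of -0.26. Without _x_at and _s_at probe sets, Hmga2 gave 3.34 for Olig2 against GFP in null lines, 3.71 for the difference between line types and -3.26 between GFP null and heterozygous lines. Without both line 12 arrays, a setting chosen after the data were seen, Hmga2 gave 4.26. Cord and neurosphere counts against forebrain were 2 to 3, in place of 3, with each array left out and over the other settings. With the line or embryo number as a replicate block, which pairs arrays of 1 line or embryo, 0 members were called for Olig2 against GFP (Igf2bp3 0.08, adjusted p 0.87) and 3 for cord against forebrain (Igf2bp3 -0.43, adjusted p 0.0328), and the block changed no call. Hmga2 in null lines against the mean of both genotypes stayed at -2.53 to -2.26 over 7 settings. Signals under the array medians, as for Lin28a and Lin28b, limit any statement on those genes. The causes were not tested.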

Other observations

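The following values were chosen after they had been seen. On the GFP array of null line 12, 29 probe sets stood more than 1 log2 unit above all 21 other neurosphere arrays, a count within the range of 6 to 58 that the other arrays gave. Of the 29, 4 were probe sets of Igf2bp3 and 2 of Acot11, and the rest included Bgn, Dusp5, Fasn, Hopx, Hoxc4 and Myh11. The excess over the highest other array was 2.12 for 1450687_at (1934 against 433 units), 1.42 for 1422610_s_at, 1.3 for 1422611_s_at and 1.28 for 1433732_x_at. Probe sets 1433731_at and 1453957_a_at stood 0.65 and 0.51 above. Set against the median of the other neurosphere arrays, the 6 Igf2bp3 probe sets stood 1.15 to 2.95 higher on that array. By the same measure, the neighbours of Igf2bp3 on chromosome 6 in RefSeq order stood at -0.83 for Malsu1 (549 against a median of 991 units), -0.40 for Gpnmb, 0.09 for Tra2a, 0.02 for Ccdc126, -1.14 for Fam221a and 0.47 for Doxl1 (32.9 against 19.4 units).

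Mir99ahg, the transcript that hosts a let-7c gene, was read by 2 probe sets. With Olig2 in null lines, 1431424_at had 338 to 427 units, against 216 to 296 with GFP (0.59, limma adjusted p 0.113), and 1445363_at had 193 to 317, against 88.7 to 121 (1.04, adjusted p 0.0637). Neither was called, although the groups did not overlap. In untransduced null lines against the mean of both genotypes the probe sets gave 0.35 (adjusted p 0.262) and 0.15 (adjusted p 0.797). In cord against forebrain they gave -0.56 (adjusted p 0.0124) and 0.11 (adjusted p 0.582), and in neurospheres against forebrain -0.76 (adjusted p 0.000561) and -1.45 (adjusted p 7.7e-05). A host transcript's level is not the level of the mature microRNA.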
